A study of Mus musculus with 8 samples.

Results

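The killer cell lectin-like receptor genes (Klr genes) encode C-type lectin-like proteins of the cell surface, and 10 of them were described here: Klrk1, Klrd1, Klrc1, Klrb1, Klrb1b, Klrb1c, Klrb1f, Klre1, Klri1 and Klri2. All probes whose gene name in the scanner files equalled one of these 10 names were taken, which gave 18 of the 56605 probes on the array and 10 of 37074 gene names. The 10 genes had been chosen by their log2 difference between the MHCII-high and MHCII-low samples of these same arrays, several of them being higher in MHCII-high cells. The comparison of the groups therefore describes them and tests nothing about them.

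The samples were macrophages sorted by flow cytometry from tumours of the pancreas in mice, 4 of them MHCII-high and 4 MHCII-low, named for the surface level of MHC class II, which presents peptides to helper T cells. The mice of all 8 samples were female, 8 to 10 weeks old, of a strain given as FvBn, and carried implanted tumours, and the labels give no genotype. Wild-type, KPC and FLT3-CRE/LSL-YFP mice are all named in the series' design text, without a key from the 8 samples to these mice, and gates other than MHCII are not given in the sources used here. Samples carry the numbers 20435, 20436, 20439 and 20442, each once in both groups, and the meaning of the numbers is not stated. As separate animals are not stated for the 4 samples of a group either, a p-value covers the spread among these samples, possibly a technical one.

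Klr genes lie together on mouse chromosome 6, in the natural killer gene complex, and are best known from natural killer (NK) cells, which they help to decide whether to kill a target cell. Klrk1 encodes NKG2D, an activating receptor for stress-induced ligands, which signals through the adaptors encoded by Hcst and Tyrobp. Klrd1 encodes CD94, which pairs with NKG2A, the product of Klrc1, to bind the nonclassical MHC class I molecule Qa-1b and inhibit the cell. The Klrb1 genes encode the NKR-P1 receptors, several of which bind lectins of the Clec2 family, and KLRE1 pairs with KLRI1 or KLRI2 in mouse NK cells. Some Klr genes are also transcribed in dendritic cells and other myeloid cells.

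Related receptors can be read by one another's probes, so the probe sequences are shown for the genes whose values are discussed most and for the probes that share the longest runs of bases. They are the array's 60-base designs as deposited, 5′ to 3′, and their positions are the mm9 coordinates in the files. Capitals mark the longest run that a pair of family probes shares, where it has 11 or more bases. Other runs of a pair stay in lower case, among them ttgattgacac, which Klrb1 probe 1 and the Klrb1f probe also share. The Klri1 probe lies at chr6:129666963-129667022 and the Klri2 probe at chr6:129681377-129681436, on the minus strand. The Klrd1 probe lies at chr6:129548391-129548450 on the plus strand. Klrk1 probe 1 lies at chr6:129562442-129562501 and Klrk1 probe 2 spans chr6:129562482-129562771 on the minus strand, so that the 60 bases of probe 2 are not adjacent in the genome. Klrb1 probe 1 lies at chr6:128656022-128656081, Klrb1 probe 3 at chr6:128660544-128660603, Klrb1b probe 2 at chr6:128770284-128770343 and Klrb1c probe 3 at chr6:128734770-128734829, all on the minus strand, and the Klrb1f probe at chr6:129006941-129007000 on the plus strand. No exon or UTR annotation of this build was used here.
Klri1: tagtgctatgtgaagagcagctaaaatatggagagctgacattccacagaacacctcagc
Klri2: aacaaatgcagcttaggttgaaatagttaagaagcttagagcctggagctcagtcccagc
Klrd1: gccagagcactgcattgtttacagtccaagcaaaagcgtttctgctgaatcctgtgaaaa
Klrk1 probe 1: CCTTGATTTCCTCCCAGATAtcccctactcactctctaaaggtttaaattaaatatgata
Klrk1 probe 2: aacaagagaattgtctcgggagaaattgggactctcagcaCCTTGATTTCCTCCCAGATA
Klrb1 probe 1: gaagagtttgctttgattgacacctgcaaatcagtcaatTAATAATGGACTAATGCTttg
Klrb1f: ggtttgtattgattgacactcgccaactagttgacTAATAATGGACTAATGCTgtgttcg
Klrb1 probe 3: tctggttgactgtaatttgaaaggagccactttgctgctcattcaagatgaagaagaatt
Klrb1b probe 2: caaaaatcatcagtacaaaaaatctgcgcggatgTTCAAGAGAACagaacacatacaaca
Klrb1c probe 3: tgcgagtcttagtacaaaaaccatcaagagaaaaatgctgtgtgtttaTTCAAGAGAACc

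The 2 Klrk1 probes share a run of 20 bases, the end of probe 2 and the start of probe 1. Klrb1 probe 1 and the Klrb1f probe share 18 bases in a row and 44 of 56 aligned bases (78.6%), and Klrb1b probe 2 and Klrb1c probe 3 share 11 in a row and 34 of 46 (73.9%). No other pair of the 18 probes shared a run longer than 10 bases. Probes were compared only with probes and not with the transcripts of related genes, so reading across genes was not tested. The Klri1 and Klri2 probes have no run of 11 bases in common, although the accessions that the files give for the Klri2 probe include a RefSeq model that the RefSeq gene table (GRCm38.p6) assigns to Klri1.

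Of the 18 probes, 15 stood well above background on 4 or more of the 8 arrays and entered the fit over all 41179 such probes. A probe passed the threshold where its adjusted p (limma, Benjamini-Hochberg over all probes) was under 0.05. The count was 9 of 15, all higher in MHCII-high cells, from 7 genes: Klrk1, Klrd1, Klrb1, Klrb1b, Klrb1c, Klri1 and Klri2. Over all probes tested, 5.23% passed, 2.8% as higher and 2.43% as lower. The groups did not overlap in 9 of the 15 probes, against 14.8% of all probes tested and 7.69% with MHCII-high above. The median log2 difference, MHCII-high minus MHCII-low, was 3.07 over the 15 probes and 0.01 over all probes tested. Since this contrast chose the genes, nothing is read from these counts and no p-value is given for a member. Fewer cells of a type and less RNA per cell cannot be told apart in such bulk samples.

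**Figure D1:**
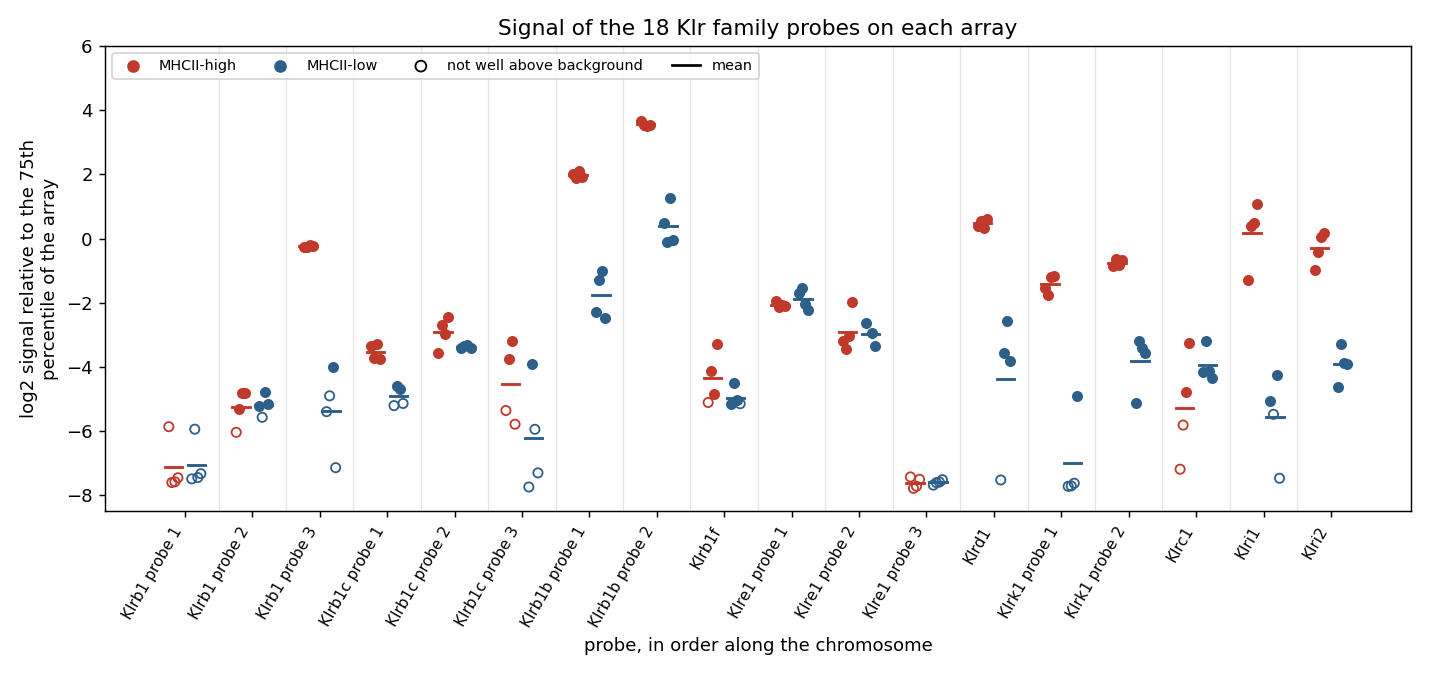
Each point is the log2 signal of a probe on 1 array, relative to the 75th percentile of that array, with 4 MHCII-high arrays (red, left) and 4 MHCII-low arrays (blue, right) for each of 18 probes; lines are group means and open points are spots not well above background. In 9 of the 15 tested probes every MHCII-high point lies above every MHCII-low point. The SD of the MHCII-low points is larger than that of the MHCII-high points in all 9, only slightly so for Klri2.

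Klrk1, the gene of NKG2D, was higher in MHCII-high cells by both of its probes. Values are log2 signals relative to the 75th percentile of each array, given in the order of the sample numbers 20435, 20436, 20439 and 20442. Klrk1 probe 2 read -0.87, -0.65, -0.82 and -0.67 in MHCII-high samples, against -5.14, -3.20, -3.41 and -3.55 in MHCII-low samples. This probe was well above background on all 8 arrays, and its groups did not overlap. The log2 difference was 3.07 with a standard error (SE) of 0.39. Klrk1 probe 1 read -1.53, -1.76, -1.19 and -1.15 in MHCII-high samples, against -7.72, -7.71, -7.62 and -4.92 in MHCII-low samples. In MHCII-low cells only sample 20442 was well above background for probe 1, and the other 3 lay close together far below it. The difference for probe 1 was 5.58 (SE 0.61), and it was 3.87 when values below the lowest signal well above background were raised to that signal, a setting chosen after seeing the data.

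Klrd1, the gene of CD94, read 0.41, 0.54, 0.33 and 0.62 in MHCII-high samples, against -7.52, -3.58, -2.57 and -3.83 in MHCII-low samples. The MHCII-high samples lay within a narrow band, and MHCII-low sample 20435, the one not well above background, stood far below the other 3. The difference was 4.85 (SE 0.92), and it was 3.80 without MHCII-low sample 20435. Klrd1 no longer passed the threshold where slide row was a block (difference 4.69) or without MHCII-high sample 20436, 20439 or 20442 or MHCII-low sample 20442.

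Klrc1, whose product NKG2A pairs with CD94, read -7.19, -5.81, -4.80 and -3.27 in MHCII-high samples, against -4.15, -3.19, -4.14 and -4.35 in MHCII-low samples. The ranges overlapped, 2 MHCII-high and 4 MHCII-low arrays were well above background, and the difference of -1.31 (SE 0.74) did not pass. It was -0.24 with normexp background correction.

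Klri1 and Klri2, which lie next to each other and encode the partners of KLRE1, were both higher in MHCII-high cells. KLRI1 is an inhibitory chain and KLRI2 an activating one in mouse NK cells. Klri1 read -1.29, 0.40, 0.49 and 1.06 in MHCII-high samples, against -5.07, -5.48, -4.25 and -7.47 in MHCII-low samples. All MHCII-high arrays were well above background, and in MHCII-low cells samples 20435 and 20439 were. Its difference was 5.74 (SE 0.73), and 3.34 with normexp background correction. Klri2 read -0.98, -0.43, 0.05 and 0.17 in MHCII-high samples, against -4.62, -3.29, -3.89 and -3.90 in MHCII-low samples, with all 8 arrays well above background. The Klri2 groups did not overlap, and the difference was 3.63 (SE 0.34). MHCII-high sample 20435 was the lowest of its group for both genes.

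Klre1, the partner gene, was measured by 3 probes and none of them passed. Probe 1 read -1.96, -2.15, -2.06 and -2.11 in MHCII-high samples, against -1.68, -1.53, -2.04 and -2.24 in MHCII-low samples, all well above background. The groups overlapped and the difference was -0.19 (SE 0.18). Klre1 probe 2 had a difference of 0.07 (SE 0.37), with 3 MHCII-low samples because the spot of sample 20436 was marked as an outlier and left out. Probe 3 was not well above background on any array.

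Klrb1b encodes NKR-P1B, an inhibitory receptor whose ligand Clr-b is the product of Clec2d. Both of its probes were higher in MHCII-high cells. Probe 2 read 3.67, 3.55, 3.52 and 3.55 in MHCII-high samples, against 0.49, -0.10, 1.26 and -0.06 in MHCII-low samples. Probe 1 read 2.01, 1.90, 2.11 and 1.93 in MHCII-high samples, against -2.29, -1.28, -1.02 and -2.48 in MHCII-low samples. Every array was well above background for both probes and the groups did not overlap in either. The differences were 3.17 (SE 0.29) for probe 2 and 3.75 (SE 0.33) for probe 1, and with normexp background correction they were 3.12 and 3.30.

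Klrb1, which encodes NKR-P1G, gave different answers by probe. Klrb1 probe 3 read -0.27, -0.27, -0.19 and -0.22 in MHCII-high samples, against -5.39, -4.90, -4.01 and -7.14 in MHCII-low samples, where only sample 20439 was well above background. Its MHCII-high SD of 0.04 was the smallest among the probes that passed, and the difference was 5.12 (SE 0.57). Klrb1 probe 2 read -6.04, -5.32, -4.81 and -4.81 in MHCII-high samples, against -5.22, -5.57, -4.78 and -5.16 in MHCII-low samples. For that probe 3 arrays of each group were well above background, the groups overlapped, and the difference was -0.06 (SE 0.30). Probe 1, which shares 18 bases with the Klrb1f probe, was not well above background on any array. The RefSeq accessions listed for probe 3 include one that the gene table assigns to Klrb1, while probe 1 has none listed and none of those listed for probe 2 was found in that table.

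Klrb1c encodes NKR-P1C, the NK1.1 antigen of some mouse strains and an activating receptor. Its probe 1 read -3.35, -3.71, -3.28 and -3.76 in MHCII-high samples, against -5.21, -4.60, -4.69 and -5.14 in MHCII-low samples, of which samples 20436 and 20439 were well above background. The groups did not overlap and the difference was 1.38 (SE 0.20), the smallest among those that passed, and it was 0.47, without passing, under normexp background correction. Klrb1c probe 2, well above background on all arrays, read -3.56, -2.68, -2.98 and -2.45 in MHCII-high samples, against -3.40, -3.36, -3.32 and -3.40 in MHCII-low samples. Those groups overlapped and the difference of 0.46 (SE 0.23) did not pass. Probe 3 was well above background on 2 MHCII-high arrays and 1 MHCII-low array and was not tested.

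Klrb1f encodes NKR-P1F, another receptor for Clec2 lectins. It read -5.11, -4.12, -4.84 and -3.29 in MHCII-high samples, against -5.15, -4.51, -5.02 and -5.15 in MHCII-low samples. On each side 3 arrays were well above background, the groups overlapped, and the difference was 0.62 (SE 0.39).

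Each of the 9 probes that passed was well above background on all 4 MHCII-high arrays, and 4 of them, those of Klri2, Klrb1b (both) and Klrk1 probe 2, on all 8. The filter asked for 4 such arrays and MHCII-high lay above MHCII-low in all 9. The first of these counts was therefore largely fixed in advance. The SD of these probes was smaller in MHCII-high than in MHCII-low samples in all 9, at 0.04 to 1.01 in MHCII-high samples, against 0.31 to 2.17 in MHCII-low samples. For Klri2 the SDs were close, at 0.52 in MHCII-high and 0.54 in MHCII-low samples. The share over all probes was not taken, so nothing is read from that count. The lowest MHCII-low sample was 20435 for 5 probes, 20442 for 3 and 20436 for 1. The highest MHCII-low sample was 20439 for 5 probes, 20436 for 3 and 20442 for 1. Sample 20439 was never the lowest of the MHCII-low samples and sample 20435 never the highest.

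All 8 arrays lay on 1 slide, with 1 array of MHCII-high beside 3 of MHCII-low in row 1, and 3 of MHCII-high beside 1 of MHCII-low in row 2. The groups were therefore also compared within each row. Within row 1 and row 2, the differences were 5.33 and 7.56 for Klri1, 3.51 and 3.64 for Klri2, 5.10 and 4.28 for Klrd1, and 3.26 and 2.77 for Klrk1 probe 2. They were 3.43 and 4.49 for Klrb1b probe 1, 4.50 and 6.91 for Klrb1 probe 3, and 1.12 and 1.68 for Klrb1c probe 1. The groups of these probes did not overlap, so all of these differences were bound to be above 0. That holds for both values of Klrb1b probe 2 as well, of which that of row 2 was 3.64. For Klrk1 probe 1 the differences were 5.93 and 3.62, and the MHCII-low array of row 2 was the one on which that probe stood well above background.

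**Figure D2:**
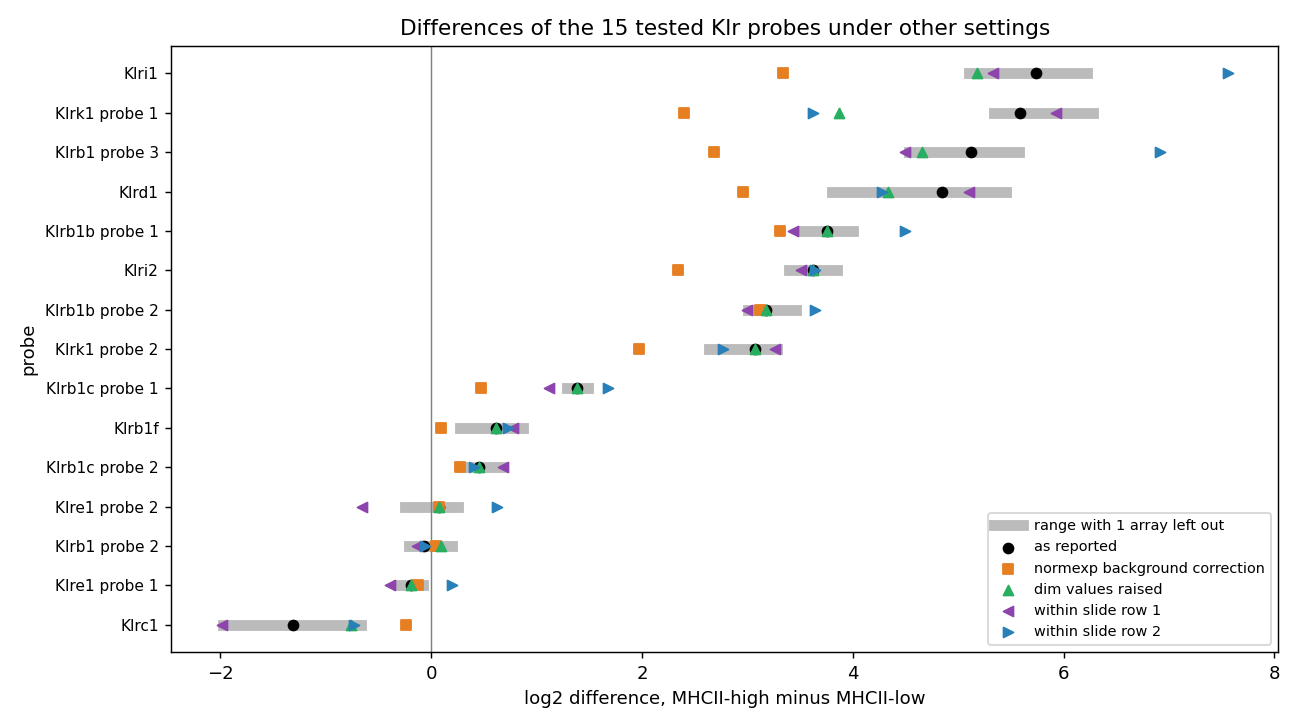
The log2 difference of each of the 15 tested probes (MHCII-high minus MHCII-low) as reported and under other settings; grey bars span the values with 1 array left out. The 9 probes that passed stay above 0 in every setting drawn, which non-overlapping groups fix in advance for left-out arrays and slide rows. Normexp background correction brings Klri1 to 3.34, Klrk1 probe 1 to 2.39 and Klrb1 probe 3 to 2.68.

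The differences were smaller with normexp background correction, which adds an offset before the log. They were 3.34 for Klri1, 2.96 for Klrd1, 2.68 for Klrb1 probe 3, 2.39 for Klrk1 probe 1, 2.34 for Klri2 and 1.97 for Klrk1 probe 2. Those of Klrb1b changed least, as given above, so that with normexp the differences of Klri1 and Klrb1b probe 1 were close to each other.

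Other receptors of the same complex were counted from a list of 30 Klr and Ly49 (Klra) genes, of which 13 could be tested. In this list 3 genes rose in MHCII-high cells and none fell. Of all gene names, taken by their brightest probe, 4.93% passed, 2.7% as higher and 2.24% as lower, and the other lists below are read against the same shares. The list's median difference was 0.11. Klrb1-ps1, annotated as a pseudogene of the NKR-P1 family, read 0.64, 0.64, 0.59 and 0.39 in MHCII-high samples, against -3.70, -3.22, -2.96 and -4.70 in MHCII-low samples. Its difference was 4.21 (SE 0.35, adjusted p = 0.00109). Klrb1a, which encodes NKR-P1A, read 0.77, 0.85, 0.85 and 0.36 in MHCII-high samples, against -2.96, -2.52, -1.81 and -3.40 in MHCII-low samples. Its difference was 3.38 (SE 0.32, adjusted p = 0.00198). In both genes the groups did not overlap and all arrays were well above background. The most similar family probe matched the Klrb1-ps1 probe at 24 of 50 aligned bases and the Klrb1a probe at 24 of 56, with no shared run longer than 8 bases. As only probe sequences were compared, reading of related transcripts by these probes was not tested.

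Klra17, which encodes Ly49Q, an inhibitory receptor of plasmacytoid dendritic and other myeloid cells, was the remaining gene of the list that rose. It read -2.52, -2.66, -3.62 and -2.49 in MHCII-high samples, against -7.07, -5.49, -4.29 and -7.11 in MHCII-low samples, of which 1 was well above background. The difference was 3.17 (SE 0.63, adjusted p = 0.0275), and its adjusted p was 0.0562 where slide row was a block, while Klrb1-ps1 and Klrb1a still passed. With normexp background correction the Klra17 difference was 0.96 (adjusted p = 0.0139). The remaining tested genes of the list had differences between -0.56 and 0.29. Among them Klra2, which encodes Ly49B, a receptor of myeloid cells, averaged 2.21 ± 0.19 in MHCII-high and 2.17 ± 0.18 in MHCII-low samples (SD, n = 4 each), a difference of 0.04 (SE 0.16). Klra1 differed by -0.02, and Klra3 had no probe by that name.

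**Figure D3:**
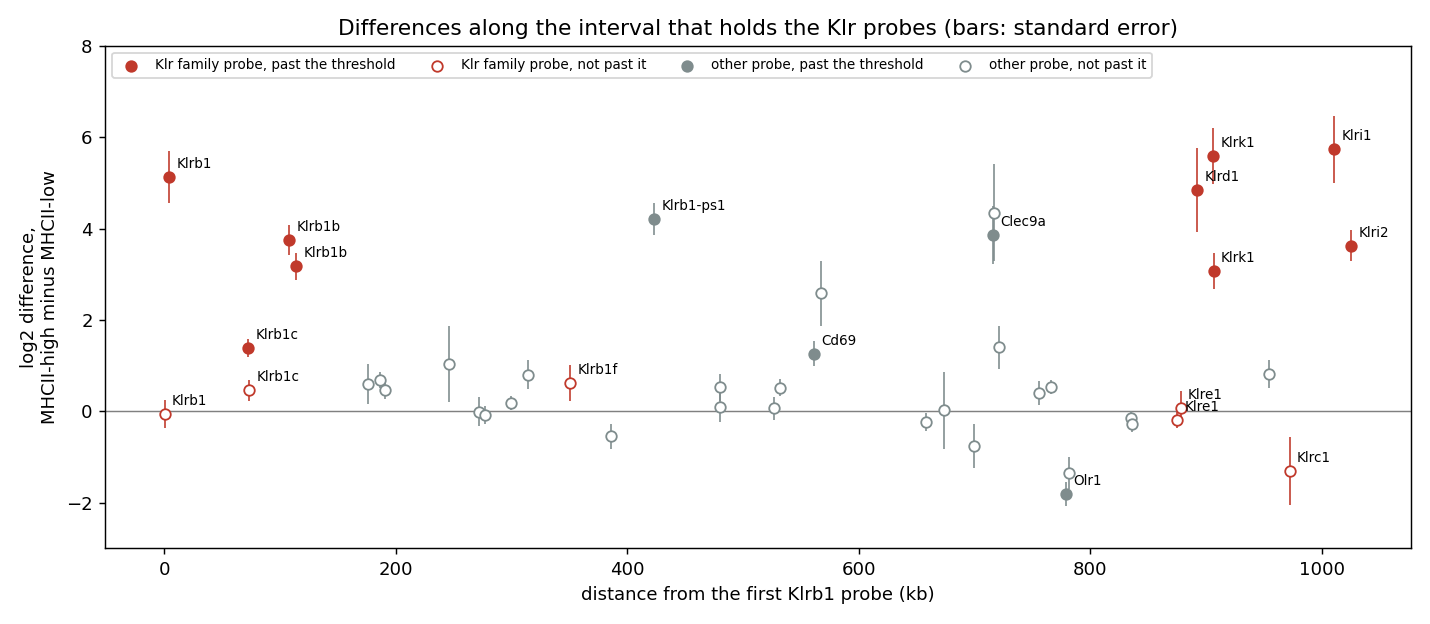
The log2 difference (MHCII-high minus MHCII-low, with its standard error) of 44 tested probes by distance along the chromosome from the first Klrb1 probe, with family probes in red, other probes in grey and filled points past the threshold. Passing family probes sit at both ends of the interval, and among 29 other probes a probe each of Klrb1-ps1, Clec9a, Cd69 and Olr1 passed.

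The family probes spanned 1025 kb of chromosome 6 (mm9, chr6:128656022-129681436), and the probes between them were taken as neighbours. There were 29 other tested probes, with a median difference of 0.45, and 4 of them passed. Besides Klrb1-ps1, Clec9a, a receptor for dead cells on type 1 dendritic cells, was higher at 3.86 (SE 0.64, adjusted p = 0.0143). Cd69, an activation marker of lymphocytes, was higher at 1.26 (SE 0.28, adjusted p = 0.0380), and Olr1, a receptor for oxidised lipoprotein, was lower at -1.80 (SE 0.26, adjusted p = 0.00941). Where slide row was a block, Clec9a and Cd69 (adjusted p = 0.136) did not pass and Olr1 did (adjusted p = 0.0415). Another tested probe of Clec9a gave 4.35 (adjusted p = 0.0551), of Cd69 2.58 (adjusted p = 0.0816) and of Olr1 -1.35 (adjusted p = 0.0632). None of those passed in the fit as reported. Probes that passed and probes that did not were interleaved: Klrb1f and Klrc1 lay between genes that passed, and both Klre1 probes that were tested lay just before the Klrd1 probe.

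Among ligands of these receptors, 15 genes were tested, of which 2 rose and 2 fell, with a median difference of 0.04. Cdh1, E-cadherin and a ligand of KLRG1, was higher at 1.73 (adjusted p = 0.0328). The NKG2D ligand genes went both ways, with Raet1a higher at 0.78 (adjusted p = 0.0350) by its brightest probe, while another probe of that gene gave -2.39, Raet1b lower at -1.07 (adjusted p = 0.0174) and Raet1e lower at -1.10 (adjusted p = 0.0188). The Raet1 genes are close relatives, so their values are uncertain, as cross-hybridisation between their probes was not tested, and none of the 4 passed where slide row was a block. Clec2d, the ligand gene of NKR-P1B, differed by 0.08, Clec2e by -0.55, Clec2f by 0.80 and H2-T23, which encodes Qa-1b, by 0.04, and none of these passed. Another tested probe gave 0.52 for Clec2d and 0.6 for H2-T23.

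Of 20 adaptor and signalling genes tested, none passed with limma, and 2 had an unadjusted p under 0.05. With normexp background correction none passed either. Tyrobp, which encodes DAP12, averaged 5.36 ± 0.26 in MHCII-high and 5.34 ± 0.29 in MHCII-low samples. Hcst, which encodes DAP10, averaged 2.50 ± 0.20 in MHCII-high and 2.87 ± 0.24 in MHCII-low samples, and Fcer1g averaged 4.27 ± 0.14 in MHCII-high and 4.55 ± 0.17 in MHCII-low samples (SD, n = 4 each).

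Since Klr genes mark NK cells and are also read from dendritic cells, marker lists of other cells were counted beside them. Of 24 NK cell markers 20 could be tested; none rose and 1 fell, with a median difference of 0.23, and 5 had an unadjusted p under 0.05. The one that fell was Cd244 at -0.83 (adjusted p = 0.0254), which did not pass where slide row was a block (adjusted p = 0.102). The rest of the 5 with an unadjusted p under 0.05 were higher in MHCII-high cells without passing: Ccl5, Tbx21, Il18rap and Prf1. Tbx21 differed by 0.65 (adjusted p = 0.0757), Il18rap by 0.67 (adjusted p = 0.0966) and Prf1 by 0.61 (adjusted p = 0.244). With normexp background correction Ccl5, at 0.90 as reported (adjusted p = 0.0628), passed as higher (0.85, adjusted p = 0.0188). The mean of the list was -1.76 to -0.95 over MHCII-high arrays and -1.54 to -1.32 over MHCII-low arrays, so the ranges overlapped. Ncr1, the defining receptor NKp46, averaged -2.48 ± 0.08 in MHCII-high and -2.75 ± 0.20 in MHCII-low samples. Nkg7 averaged 1.22 ± 0.42 in MHCII-high and 1.06 ± 0.62 in MHCII-low samples, and Gzma averaged -1.91 ± 0.20 in MHCII-high and -1.46 ± 0.65 in MHCII-low samples. All 3 were well above background on all 8 arrays, whereas Gzmb, Fasl, S1pr5 and Serpinb9b were not so on enough arrays to be tested.

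T cell markers gave 1 rise among 19 tested genes, Cd6 at 0.86 (adjusted p = 0.0362), and a median of -0.14. The T cell receptor subunit genes Cd3e, Cd3d and Cd3g differed by -0.32, -0.24 and -1.27 without passing. Where slide row was a block Cd6 did not pass (adjusted p = 0.137) and Ubash3a, at 0.93 as reported (adjusted p = 0.0646), did (adjusted p = 0.0405). Of 12 innate lymphoid cell markers 2 rose, Kit at 2.72 (adjusted p = 0.00341) and Il7r at 1.17 (adjusted p = 0.0319), with a median of 0.41, and Rora and Gata3 differed by -1.01 and -0.21. Il7r did not pass where slide row was a block (adjusted p = 0.0800). Kit is also on the list of markers shared by conventional dendritic cells.

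Many dendritic cell markers were higher in MHCII-high cells. The marker lists were chosen with earlier results of these data known, so their counts are descriptions and not independent evidence. All 10 markers shared by conventional dendritic cells rose, with a median of 2.58, by the brightest probe of each, among them Flt3 at 4.47 (adjusted p = 0.00220), Btla at 3.47 (adjusted p = 0.00963), Dpp4 at 3.40 (adjusted p = 0.000611), Ciita at 3.03 (adjusted p = 0.000921) and Zbtb46 at 1.75 (adjusted p = 0.0150). Other tested probes of Flt3, Dpp4 and Btla gave differences of 0.26, 0.01 and 3.94. H2-Ab1, also on this list, encodes a chain of MHC class II itself and Ciita its transactivator, so the sort for MHCII bears on them directly. Of 13 type 1 markers 6 rose, with a median of 1.55, among them Itgae at 4.09 (adjusted p = 0.00451), Clec9a at 3.86 and Batf3 at 1.75 (adjusted p = 0.00197), while Xcr1 at 2.72 did not pass. Gcsam, on this list too, passed at 6.17 (adjusted p = 0.0115), but only 1 MHCII-low array was well above background for it, and its difference was 3.31 with normexp background correction. Of 10 type 2 markers 5 rose, with a median of 0.74, led by Cd209a at 3.06 (adjusted p = 0.00139), Irf4 at 2.45 (adjusted p = 0.00594), Cd7 at 1.86 (adjusted p = 0.0375) and Mgl2 at 0.98 (adjusted p = 0.0157), and Clec10a differed by 0.26. Of 11 mature dendritic cell markers 5 rose, with a median of 0.85, among them Ccr7 at 3.54 (adjusted p = 0.00499), Ccl17 at 2.94 (adjusted p = 0.00198) and Fscn1 at 1.48 (adjusted p = 0.0478). Ccl22, for which no MHCII-low array stood well above background, also passed at 3.33 (adjusted p = 0.000498). Its difference was 0.85 with normexp background correction (adjusted p = 0.0142). Where slide row was a block, 9 of the shared, 4 of the type 1, 3 of the type 2 and 4 of the mature markers passed, and of those named Zbtb46 (adjusted p = 0.0695), Clec9a (0.0637), Gcsam (0.0552), Cd7 (0.138) and Fscn1 (0.128) did not.

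**Figure D4:**
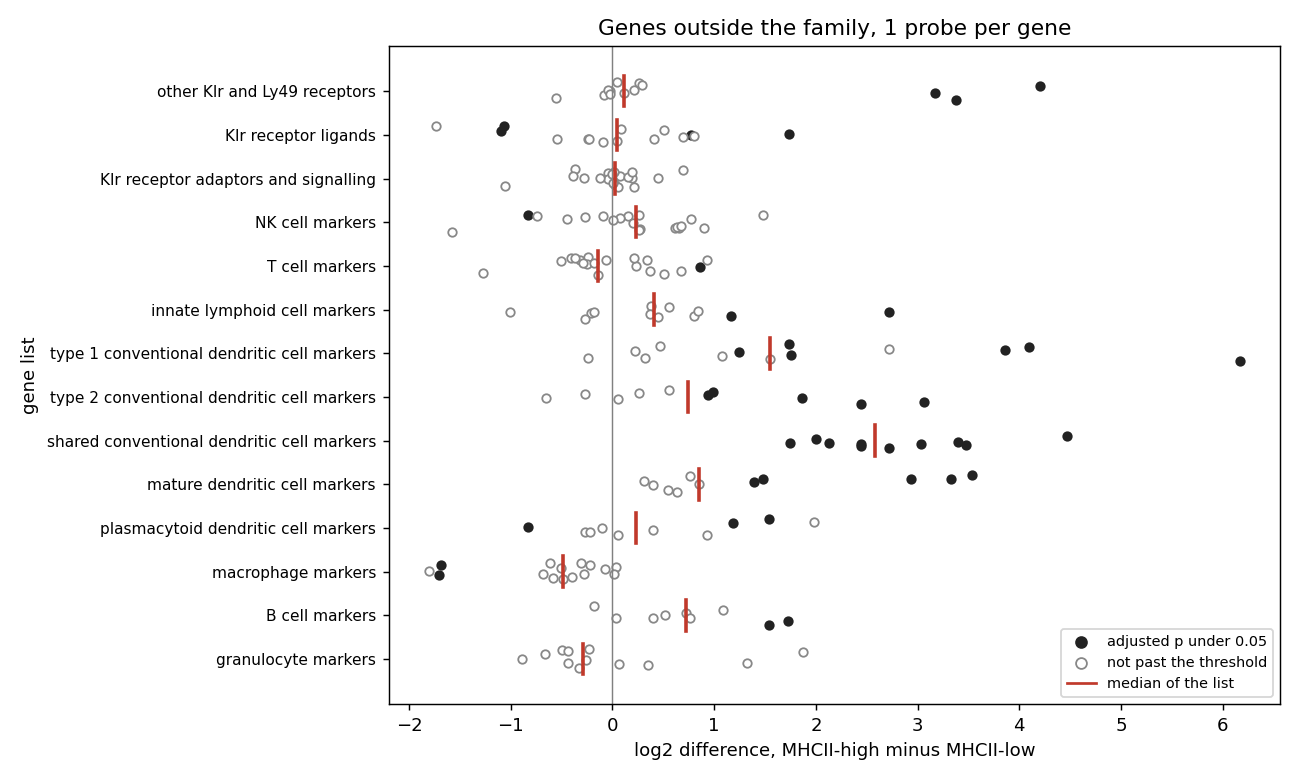
Each point is the log2 difference (MHCII-high minus MHCII-low) of 1 gene outside the family, by its brightest probe, in 14 gene lists; filled points passed the threshold and red bars are list medians. The 10 shared conventional dendritic cell markers are all filled and above 0, with a median of 2.58, while the NK cell markers have a median of 0.23 and 1 filled point, below 0. The lists were chosen with earlier results of these data known.

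Of 10 plasmacytoid markers 2 rose, Spib at 1.54 (adjusted p = 0.0248) and Ly6d at 1.18 (adjusted p = 0.0348), and Cox6a2 fell by 0.83 (adjusted p = 0.0438), with a median of 0.23, while Siglech, Bst2 and Ccr9 differed by 0.06, -0.10 and 1.98 without passing. Other tested probes of Siglech gave 0.43 and 1.34. Spib (adjusted p = 0.0717) and Ly6d (adjusted p = 0.128) did not pass where slide row was a block, and 0 to 2 markers of this list passed with 1 sample left out. The B cell marker list, which also holds Spib, had a median of 0.73 over 9 tested genes, and Ms4a1 and Cd79a differed by -0.18 and 1.09 without passing. Another tested probe of Ms4a1 gave 1.87. No granulocyte marker of 12 passed with limma, and 1 had an unadjusted p under 0.05, with S100a8 at -0.89, S100a9 at -0.49 and Ly6g at 1.32. All 15 macrophage markers were well above background on all 8 arrays, with list means of 3.04 to 3.50 over MHCII-high arrays and 3.75 to 4.06 over MHCII-low arrays. Adgre1, an adhesion receptor widely used to mark mouse macrophages, fell by 1.69 (adjusted p = 0.00474) and Siglec1 fell by 1.70 (adjusted p = 0.00661), while Mertk and Fcgr1 differed by -0.49 and 0.03 without passing. The part of any of these cells in the Klr values was not tested.

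The probes whose profile over the 8 arrays was nearest to that of a family member were sought by the mean absolute difference of log2 values centred on each probe's mean. For Klri1 they were those of Sept3 (0.44), Fndc5 (0.61) and Klrb1 probe 3 (0.64). For Klrd1 they were those of Htr7 (0.37), P2ry10 (0.49) and Ddr1 (0.56). For Klrk1 probe 2 they were those of Clnk (0.30), Ccr7 (0.36) and Stard7 (0.36). These are descriptions over 8 arrays in 2 groups, so any gene with a like difference between the groups comes near.

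Promoter sequences in the RefSeq table (GRCm38.p6, 250 bases before to 50 after the start) were found for 8 of the 10 genes, 10 promoters in all. The promoter of Klrk1 is shown because its gene was higher by both probes and it is the only one of the 10 that holds the AP-1 motif TGANTCA, in capitals. It lies at chr6:129623815-129624114 on the minus strand of that build.
Klrk1 promoter: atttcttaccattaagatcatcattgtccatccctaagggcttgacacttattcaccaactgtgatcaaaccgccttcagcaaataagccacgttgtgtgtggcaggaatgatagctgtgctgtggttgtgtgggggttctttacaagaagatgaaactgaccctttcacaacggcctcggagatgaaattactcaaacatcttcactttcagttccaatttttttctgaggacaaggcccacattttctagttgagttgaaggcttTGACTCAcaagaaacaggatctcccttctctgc
The motif lies within the 50 bases after the start, not before it. Searched on both strands, it was in 1 of the 10 promoters, against 7.81% of 32851 promoters of that length. An IRF motif, in 3.44% of promoters, the PU.1 motif GAGGAAGT, in 3.20%, and the E-box CAGCTG, in 16.3%, were in none of the 10. The STAT motif TTCNNNGAA was in 1 of 10 against 8.30%. The ETS motif AGGAAG, which the PU.1 motif contains, was in 5 of 10 against 35.4%, and the RUNX motif TGTGGT was in 4 of 10 against 16.8%. The 2 promoters of Klrb1b overlap, as do those of Klre1, and counts of this size are descriptions.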

How the data were processed

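Gene expression was measured on 8 single-colour Agilent arrays of 62976 spots, 1 per sample. Per the labels' protocols, cells were sorted into lysis buffer and their RNA was amplified (Sigma WTA2) and labelled with Cy5. The deposited scanner files hold linear spot intensity written by Agilent Feature Extraction 11.5.1.1, background-subtracted, detrended and with surrogate values for dim spots, per the file headers. Surrogates made up 17.9% to 23.3% of the spots per array that were not controls. The deposited series table holds log2 values whose making is not given in the sources used here. Each of its columns matched a quantile normalization of the log2 intensity of its array, with column medians of 9.38137 to 9.38149 and no centring of genes.

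Of the spots, 3671 controls and 67 to 160 outliers per array were left out, and none was saturated. Log2 processed signals were taken relative to the 75th percentile of each array, which compares relative abundance only, and spots of a probe were averaged. Each array had 38755 to 42086 probes (68.5% to 74.4%) well above background, and precision is limited by how many arrays there are. Across probes, which are not replicates, arrays correlated at 0.941 to 0.966 within MHCII-high, 0.946 to 0.963 within MHCII-low and 0.896 to 0.956 between groups.

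Probes well above background on at least 4 arrays entered lmFit and eBayes (R 4.3.3, limma 3.58.1), two-sided, without covariates, and p-values were adjusted by the Benjamini-Hochberg method over all 41179 probes (threshold 0.05). The script was tested on simulated data. Genes of a list were represented by their brightest probe. The rule for named genes took every probe of the family, up to 4 genes of a list with the largest differences among those that passed, the first 3 genes of each list, and the 3 nearest profiles of Klri1, Klrd1 and Klrk1. A few further genes named for their role or their p-value were chosen after their values were seen. One result that the rule would name is not reported here. The members, lists and tests were chosen with earlier results of these data known. The alternatives were other background correction, normalization, filters, 1 probe per gene name, slide row or sample number as a block, and leaving out each sample.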

Additional observations from a re-analysis of the deposited data

Results flagged for a closer look

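In groups of 4 samples, a value counted as set apart where its gap to the nearest other sample exceeded Dixon's 95% critical share of the range of the group, which chance gives in about 1 of 20 groups, and 3 of 35 groups of Klr values met this. Klrk1 probe 1 read -4.92 in MHCII-low sample 20442 against -7.62 in the next sample, a gap of 0.965 of the range, and that sample was the one MHCII-low array on which the probe was well above background. Klrb1 probe 1 read -5.86 in MHCII-high sample 20435 against -7.45 in the next (0.914), and -5.94 in MHCII-low sample 20436 against -7.33 in the next (0.895). That probe was not well above background on any array.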

How the results depend on the processing

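The count of 9 Klr probes past the threshold was 8 with normexp background correction, where Klrb1c probe 1 did not pass, 8 where slide row was a block and 8 to 9 with 1 sample left out, where Klrd1 did not pass. It was 4 of 6 tested when probes had to be well above background on all 8 arrays, since fewer probes were tested. The probes that passed gave 163 values under the alternatives, all above 0, of which 149 lay within 1 SD of the value as reported and 14 did not: 7 with normexp, 6 within slide row 2 and 1 with dim values raised. As the groups of these probes did not overlap, a difference with 1 sample left out or within a slide row could only be above 0. Over all probes, 2154 passed, against 1387 with 1 probe per gene name, 716 where slide row was a block (678 of them among the 2154), 1246 with the sample number as a replicate block, and 810 to 1762 with 1 sample left out. That count was 810 without MHCII-high sample 20439, 1100 without MHCII-high sample 20442, and 1180, 1269, 1198 and 1252 without MHCII-low samples 20435, 20436, 20439 and 20442. The cause was not tested, beyond the smaller number of samples or probes. Samples of the same number correlated at 0.08 to 0.20 in their deviations from the group means, each more than with other numbers. Pairing by number is therefore possible, though the labels do not state it. The fit as reported had no block for the number, so its p-values, those of the lists included, ignore any such pairing. With the sample number as a block all 9 Klr probes passed, with unchanged differences. That tests nothing about them, since this same contrast chose the genes. Of the lists, the ligand count of 4 was 0 where slide row was a block and 1 to 3 with 1 sample left out. Over 17 alternatives, the shared dendritic cell count of 10 was 9 to 10, the type 1 count of 6 was 4 to 8, the type 2 count of 5 was 3 to 5 and the mature count of 5 was 3 to 7. The plasmacytoid count of 3 was 0 to 4, the innate lymphoid count of 2 was 1 to 2, the T cell count of 1 was 0 to 2, the NK cell count of 1 was 0 to 2 and the macrophage count of 2 was 2 to 4. Signal over background limits the MHCII-low values of Klri1, Klrd1, Klrk1 probe 1, Klrb1 probe 3 and Klrb1c probe 1, whose sizes of difference depend on the background correction. The differences of Klri2 and Klrk1 probe 2, well above background on all 8 arrays, depended on it too. With normexp they went from 3.63 to 2.34 and from 3.07 to 1.97.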
